A study of Homo sapiens with 36 samples.

Results

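Expression of 40 genes of cell growth was followed across 4 human lung cancer cell lines: MYC, which codes for a transcription factor, and 39 genes whose proteins make or assemble ribosomes in the nucleolus. The genes were taken by name from the 66366 named genes in the files. All 40 had a mean level of at least 1 FPKM (fragments counted per length of transcript and depth of library) in each line, so none was lost to the filter on low values. The lines were H3255 (EGFR L858R), H1975 (EGFR L858R/T790M), H820 (EGFR Ex19del/T790M) and A549 (WT EGFR), all of non-small cell lung cancer. L858R and Ex19del are activating changes of the growth factor receptor EGFR, and T790M is known for resistance to early EGFR kinase inhibitors. Each line was treated for 24 h with MinE07, an RNA aptamer (a folded oligonucleotide that binds a protein) against EGFR, with C36, a control aptamer, or with vehicle, the buffered saline with magnesium that carried the aptamers. Aptamers were used at 3 µM, and 3 libraries per group, described as biologically independent experiments, gave 36 libraries in 12 groups. The medium held 1% serum during treatment in every group. It was RPMI for H3255, H1975 and H820 and DMEM for A549, and each EGFR genotype is represented by 1 line, so genotype, line and, for A549, medium cannot be told apart.

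MYC pairs with MAX and binds the DNA letters CACGTG, the E-box, near the start of many genes of growth. Ribosome building begins when RNA polymerase I copies the ribosomal RNA genes in the nucleolus. Small nucleolar ribonucleoproteins (snoRNPs) then modify and help cut that RNA, and assembly factors fold it with ribosomal proteins into a small and a large subunit. Genes of these steps are known to be transcribed together in growing cells, and many of them are known MYC targets.

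Upstream sequence was available for 34 of the 40 genes, as windows from 250 bases before to 50 bases after the annotated start (RefSeq, GRCh38.p14). The letters CACGTG, which read the same on both strands, were found in the window of 16 of these 34 genes (47.1%). They were found for 8.77% of the 27305 genes with a window, and for 12.8% of the 9303 such genes tested in H3255. Of the genes with a window that were called lower with MinE07 than with the control aptamer, 11 of 22 (50%) held the letters for H3255 and 11 of 21 (52.4%) in H1975. Of those not called, 5 of 12 (41.7%) held them in H3255 and 5 of 13 (38.5%) in H1975. A match describes the letters and does not show binding.

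The stretch around the E-box is shown for the 9 genes that held it and were called lower between the aptamers in both H3255 and H1975. Of these calls, those of LYAR and RRP9 in H3255 and of PNO1 in H1975 were lost in some alternatives. Each is printed 5′ to 3′ on the strand of the gene with the E-box in capitals. They lie at chr10:68956604-68956633 (DDX21, plus strand), chr12:6568242-6568268 (NOP2, minus), chr6:41921515-41921544 (BYSL, plus), chr2:28894658-28894687 (WDR43, plus), chr2:68157885-68157914 (PNO1, plus), chr22:30591880-30591909 (PES1, minus), chr3:51941892-51941921 (RRP9, minus), chr4:4290068-4290097 (LYAR, minus) and chr1:43172790-43172819 (EBNA1BP2, minus).
DDX21: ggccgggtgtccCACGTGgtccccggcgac
NOP2: aggtccggattgCACGTGgagggccgc
BYSL: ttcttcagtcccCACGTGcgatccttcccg
WDR43: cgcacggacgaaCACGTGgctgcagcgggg
PNO1: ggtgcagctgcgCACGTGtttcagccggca
PES1: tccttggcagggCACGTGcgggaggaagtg
RRP9: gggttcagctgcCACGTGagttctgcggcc
LYAR: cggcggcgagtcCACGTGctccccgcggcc
EBNA1BP2: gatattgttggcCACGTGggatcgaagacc
Counted from the annotated start of the window that holds it, the first base of the E-box lay at position 4 for WDR43, 10 for PNO1, 14 for PES1, 29 for BYSL and 36 for NOP2, inside the transcribed part. Upstream, it lay at position -5 for RRP9, -31 for DDX21, -64 for LYAR and -237 for EBNA1BP2. EBNA1BP2 has a second annotated start with a window of its own, where another E-box lay at position 43, inside the transcribed part. DDX21 and LYAR also have a second annotated start each, and the windows of those held no CACGTG.

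The libraries came from poly(A)-selected RNA, so ribosomal RNA itself was not measured. Summed FPKM ran from 362928 to 449811 per library, and relative depth, read from the step that 1 fragment makes in low genes, differed by 2.35-fold between libraries. The 40 genes were at 1.55 FPKM or more in every library, with a median coefficient of variation of 3.15% within a group. All 5 epithelial markers (EPCAM, CDH1, KRT8, KRT18 and KRT19) were at or above 1 FPKM in every line. Of the alveolar markers, SFTPB and NAPSA were under 1 FPKM in all lines but H3255, and NKX2-1 in A549. Of the markers of other cells, PTPRC and CD3E (blood), PECAM1, VWF and CDH5 (vessels) and COL3A1 and DCN (fibroblasts) were under 1 FPKM in all 4 lines. Of the rest, CD68 (macrophages) was at or above 1 FPKM in all 4 lines, COL1A1 (fibroblasts) in H3255 and H1975, and PDGFRB (fibroblasts) in H1975. A level is a share of the sequenced RNA, and in such bulk samples fewer cells of a kind and less RNA per cell cannot be told apart.

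With vehicle, before the effect of any aptamer, H3255 had the lowest level of MYC and of most of the other genes. MYC was at 7.24 ± 0.17 FPKM in H3255 (SD, n = 3, as for all ± of FPKM), at 77.2 ± 2.3 in H1975, at 73.9 ± 0.74 in H820 and at 30.04 ± 0.73 in A549, a 10.7-fold range. Neighbouring lines in that order differed except H1975 and H820, whose log2 difference of 0.06 was not called (95% interval -0.01 to 0.14; limma, adjusted p = 0.11). H3255 was the lowest line for 24 of the 40 genes and A549 the highest for 19. All 40 genes differed over the 4 lines by limma's moderated F test, but so did 96.9% of all tested genes. By pairs, 31 of the 40 were called lower in H3255 than in H1975 (48.9% of all tested genes), 28 lower than in H820 (42% of all) and 34 lower than in A549 (41.9% of all). The median log2 difference of the 40 was -0.63, -0.43 and -0.76 in these pairs, beside -0.14, 0.01 and 0.01 over all tested genes. Rescaling the libraries by medians of ratios moved the all-gene median of the first pair from -0.14 to -0.02, and 28 of the 40 were then called lower. Rescaling also shifted the differences of the 40 by a median of -0.17 for H1975 minus H820 and -0.18 for H1975 minus A549. The first shift exceeded the MYC difference of 0.06, so the MYC order of H1975 and H820 depends on the scaling. The order counts above use unscaled levels.

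The genes with the widest range after MYC were BOP1, FBL and NOP16. BOP1, a large-subunit assembly factor, was at 11.4 ± 0.11 FPKM in H3255, 17.5 ± 1.4 in H1975, 31.4 ± 1.6 in A549 and 80.5 ± 2.7 in H820, a 7.08-fold range. FBL, fibrillarin, the methyltransferase of the box C/D snoRNPs, was at 20.2 ± 0.92 in H1975, 22.5 ± 2.7 in H3255, 85.4 ± 4.9 in A549 and 129 ± 12 in H820, and its 2 low lines were not called apart. NOP16, another large-subunit factor, ran from 9.79 ± 0.63 in H3255 to 48.5 ± 1.0 in A549. FBL, BOP1 and UTP4 each have a second numbered copy in the files, so reads may be divided between copies and these levels are uncertain. BYSL was the most even, with a 1.12-fold range and no neighbouring lines called apart.

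NPM1, the nucleolar chaperone nucleophosmin, had the highest level of the 40 in every line, with a mean of 136 FPKM for H3255, 377 for H1975, 383 for H820 and 484 for A549. The lowest was WDR12, a large-subunit factor, in H3255 (1.65) and H820 (2.50), the small-subunit factor UTP20 in H1975 (2.78) and the small-subunit factor WDR3 in A549 (3.29). The median of the 40 genes was 12.3 FPKM for H3255, 15.5 for H1975, 14.4 for H820 and 19.01 for A549.

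**Figure D1:**
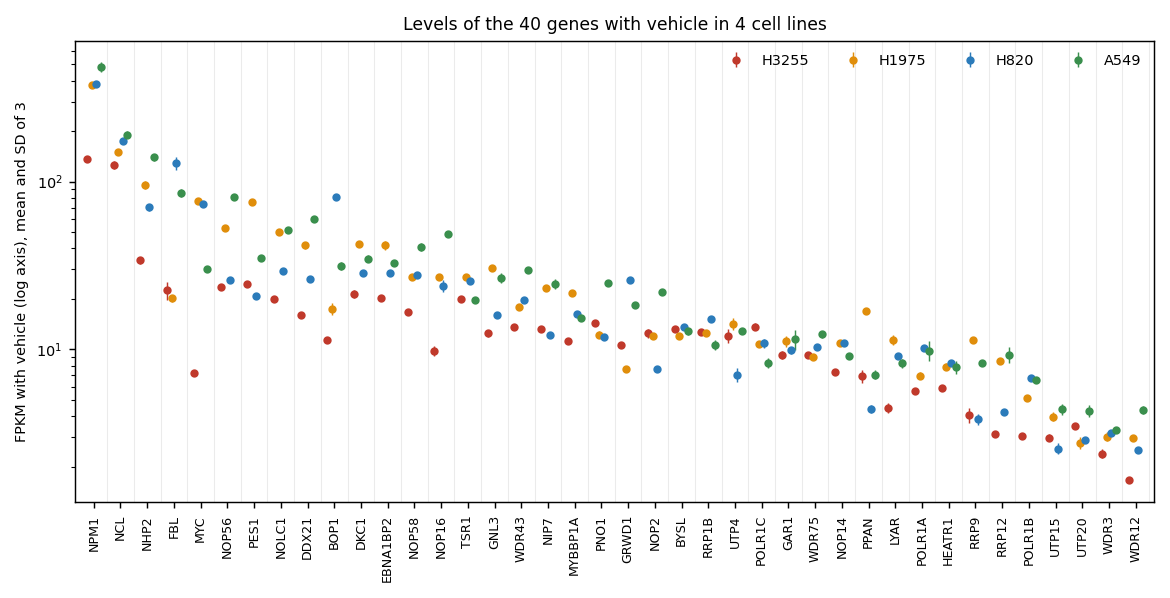
FPKM with vehicle (log axis; points, means of 3 libraries; bars, SD) of the 40 genes, ordered by their mean over the 4 lines, 1 colour per line. H3255 is the lowest point for 24 of the 40 genes, and MYC shows the widest gap, from 7.24 in H3255 to 77.2 in H1975.

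MYC itself fell with MinE07 in H1975. The C36 libraries were at 83.5, 89.6 and 83.8 FPKM, the MinE07 libraries at 67.9, 71.7 and 65.1 and the vehicle libraries at 75.8, 79.8 and 75.95. MinE07 lay below both controls without overlap. The log2 change was -0.33 ± 0.04 against C36 (± SE; adjusted p = 0.000943, limma with Benjamini-Hochberg adjustment, as for every adjusted p here) and -0.18 ± 0.04 against vehicle (adjusted p = 0.0156). The call against vehicle ended when MinE07 replicate 3 or vehicle replicate 2 was left out (adjusted p of 0.0585 and 0.0583) and when low genes were not filtered (0.0667). C36 lay above vehicle without overlap (10.4% of all tested genes did so), but the difference was not called (0.15, adjusted p = 0.164). The change against C36 thus includes a higher C36 group.

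In H3255, where MYC was low, the C36 libraries were at 7.83, 7.73 and 7.61 FPKM, the MinE07 libraries at 6.36, 7.57 and 7.32 and the vehicle libraries at 7.18, 7.43 and 7.10. MinE07 lay below C36 without overlap but overlapped vehicle, and 1 MinE07 library was well under the others. The change against C36 was -0.12 ± 0.06 and did not pass (adjusted p = 0.118; 0.0326 when all 36 libraries were fitted together). Against vehicle it was -0.03 (adjusted p = 0.675). C36 lay above vehicle without overlap here too (17.1% of all tested genes did so), and that difference was not called (0.09, adjusted p = 0.465). Without the low library, MinE07 replicate 1, the change with MinE07 was -0.05 against C36 (adjusted p = 0.373) and 0.04 against vehicle (adjusted p = 0.492).

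In H820, MYC rose with either aptamer. Vehicle libraries were at 73.002, 74.2 and 74.4 FPKM, C36 libraries at 92.5, 97.3 and 90.3 and MinE07 libraries at 89.9, 98.5 and 92.9. All 6 aptamer libraries exceeded all 3 vehicle libraries, and the aptamers overlapped each other. Against vehicle, MYC was higher by 0.34 ± 0.04 with MinE07 (adjusted p = 0.00168) and by 0.34 ± 0.04 with C36 (adjusted p = 0.00338), comparisons that share the vehicle libraries. Between the aptamers the difference was 0.01 (95% interval -0.08 to 0.09, adjusted p = 0.973).

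In A549 the vehicle libraries were at 30.5, 29.2 and 30.4 FPKM, the C36 libraries at 32.5, 33.4 and 32.8 and the MinE07 libraries at 30.7, 30.7 and 30.4. C36 lay above both other groups without overlap. MYC rose by 0.13 on the log2 scale from vehicle to C36 (adjusted p = 0.0473). That call was lost in 11 of 19 alternatives, among them without any 1 of the C36 or MinE07 libraries or of vehicle replicates 2 and 3, with adjusted p up to 0.158. Between the aptamers the change was -0.10 (adjusted p = 0.364).

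**Figure D2:**
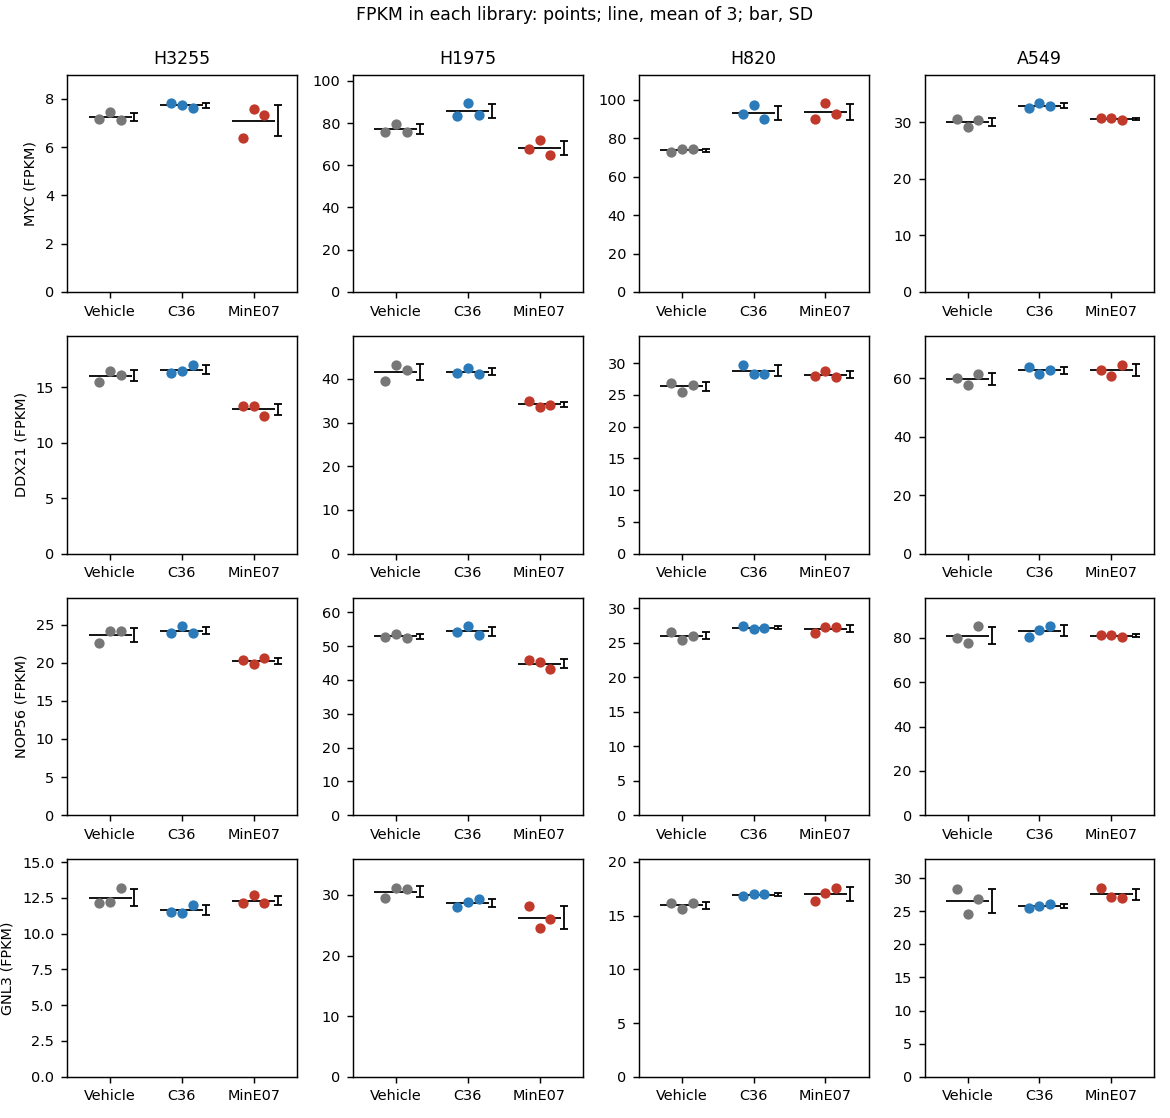
FPKM of MYC, DDX21, NOP56 and GNL3 in each library of the 4 lines, by treatment; points are libraries, lines means and bars SDs of 3. MYC is lowest with MinE07 in H1975 and higher with either aptamer than with vehicle in H820, while the MinE07 points of DDX21 and NOP56 lie below those of C36 in H3255 and H1975 and those of GNL3 do not in H3255.

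Between the aptamers, the question was whether an aptamer that binds EGFR moved the ribosome genes beyond what a control aptamer did. In H3255, 26 of the 40 genes were called lower and none higher, where 20% of all tested genes were called lower, 16.6% higher and 36.7% in either direction. The median log2 change of the 40 was -0.18, beside -0.01 over all tested genes, and 38 of 40 changes were negative. MinE07 libraries lay wholly below C36 libraries for 32 genes, against 27.1% of all tested genes, and wholly above for 1, against 22.8%. In H1975, 27 of 40 were called lower and none higher, where 11.1% of all tested genes were called lower, 8.88% higher and 19.9% in either direction. All 40 changes were negative there, with a median of -0.19 beside -0.01 over all tested genes, and 35 had no overlap between the groups (21.6% of all tested genes, lower). The largest single change was -0.34 in H3255 and -0.37 in H1975.

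In both of these lines 20 genes were called, which is 76.9% of the calls of H3255 and 74.1% of those of H1975. NPM1, POLR1A, UTP15, UTP20, UTP4 and WDR12 were called in H3255 and not in H1975. MYC, MYBBP1A, NOP14, NOP16, POLR1B, POLR1C and RRP1B were called in H1975 and not in H3255. FBL, GAR1, GNL3, HEATR1, NHP2, WDR3 and WDR75 were called in neither. Under every alternative, 18 of the 26 calls of H3255 and 23 of the 27 of H1975 held. Leaving out a single library ended the call of LYAR, NOLC1, NOP58, RRP9, UTP15, UTP4 or WDR12 in H3255, with adjusted p up to 0.156, 0.181, 0.0872, 0.122, 0.0582, 0.0955 and 0.0963 over all alternatives. In H1975 it ended that of BOP1, NOP14, PNO1 or POLR1B, with adjusted p up to 0.0984, 0.144, 0.0721 and 0.132.

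In H820 and A549 no gene of the 40 was called between the aptamers by limma. Of all tested genes 0.0364% were called in H820 and 0% in A549. At an unadjusted p under 0.05, 1 gene of the 40 passed in H820 and 4 in A549, and no alternative called any. Over all tested genes, 1396 of 13753 passed so in H820 and 1455 of 13425 in A549. The median change was -0.02 in H820, with 27 of 40 negative, and -0.01 in A549, with 24 of 40 negative.

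**Figure D3:**
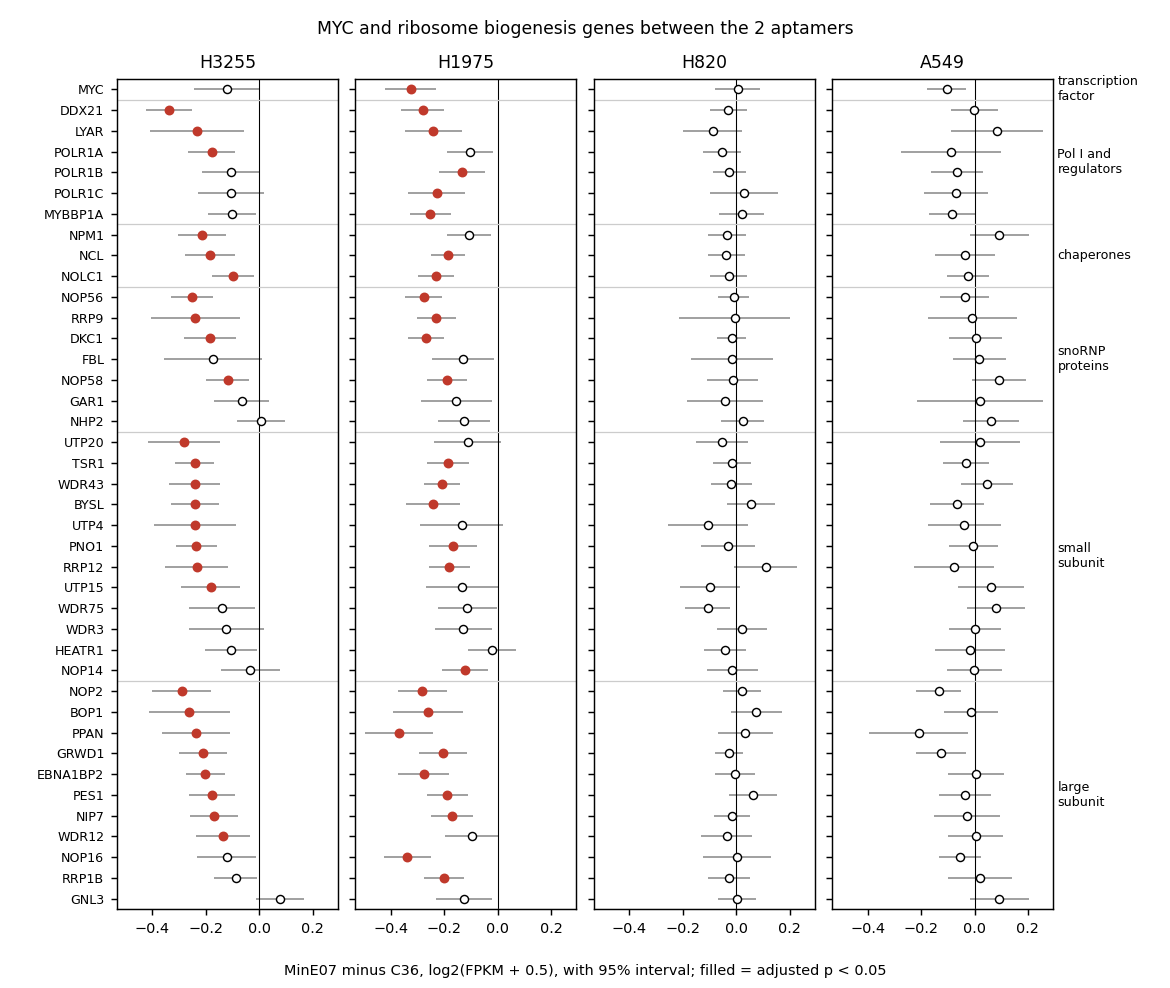
Log2 change of each gene between MinE07 and C36 (horizontal axis, with 95% interval) in the 4 lines; the 40 genes are grouped by role and filled points are called at an adjusted p under 0.05. Filled points lie left of 0 for 26 genes in H3255 and 27 in H1975, and there are none in H820 or A549.

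RNA polymerase I and the nucleolar regulators of ribosomal RNA synthesis numbered 6, of which 3 were called lower in H3255 and 5 in H1975. DDX21, an RNA helicase that works with polymerase I and with an E-box near an annotated start, had the largest change of the 40 genes in H3255. Its C36 libraries were at 16.3, 16.5 and 17.1 FPKM, its MinE07 libraries at 13.3, 13.3 and 12.4 and its vehicle libraries at 15.5, 16.5 and 16.2. MinE07 was below both controls without overlap, by -0.34 ± 0.04 against C36 (adjusted p = 9.55e-05). In H1975 DDX21 was at 41.3, 42.6 and 41.1 with C36 and 34.9, 33.6 and 34.1 with MinE07, again apart (-0.28 ± 0.04, adjusted p = 0.000795). Its change was -0.03 in H820 and -0.001 in A549, neither called.

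Of the polymerase subunits, POLR1A, the largest, was at 5.69, 5.49 and 5.56 FPKM with C36 and 4.785, 5.02 and 4.81 with MinE07 in H3255 (-0.18 ± 0.04, adjusted p = 0.00556). In H1975 it changed by -0.10 and was not called (adjusted p = 0.0915). POLR1B, the second largest subunit, and POLR1C, a subunit shared with polymerase III, were called in H1975 and not in H3255. For POLR1C the change was -0.23 in H1975 (adjusted p = 0.00883) and -0.11 in H3255 (adjusted p = 0.166). For POLR1B it was -0.13 in H1975 (adjusted p = 0.0368), a call lost without any 1 of the C36 or MinE07 libraries or vehicle replicate 3 (up to 0.132).

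MYBBP1A, a nucleolar protein that binds MYB, was at 20.7, 21.8 and 21.4 FPKM with C36 and 18.1, 18.3 and 17.02 with MinE07 in H1975 (-0.25 ± 0.03, adjusted p = 0.00114). In H3255 it was at 11.7, 11.4 and 11.8 with C36 and 10.3, 11.05 and 11.1 with MinE07, which did not overlap but did not pass (-0.10, adjusted p = 0.0729). LYAR is a nucleolar zinc finger protein. In H1975 it went from 11.02, 10.4 and 10.6 to 8.64, 9.215 and 9.01 (-0.24 ± 0.05, adjusted p = 0.00758) without overlap. In H3255 its groups overlapped, at 5.09, 5.72 and 4.80 with C36 and 4.86, 4.17 and 4.01 with MinE07. That call (-0.23, adjusted p = 0.0413) was lost in 8 of 18 alternatives, among them without C36 replicates 1 or 2, MinE07 replicates 2 or 3 or vehicle replicate 1 (up to 0.156).

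All 3 nucleolar chaperones were called lower in H3255, and 2 in H1975. NCL, nucleolin, was at 124, 126 and 122 FPKM with C36 and 114, 109.54 and 105 with MinE07 in H3255 (-0.18 ± 0.04, adjusted p = 0.00692). In H1975 it was at 149, 148 and 142 with C36 and 129, 128 and 128 with MinE07 (-0.19 ± 0.03, adjusted p = 0.0018). The groups were apart in both lines.

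For NPM1 in H3255 the C36 libraries were at 129.65, 129.996 and 129.98 FPKM and the MinE07 libraries at 118, 112 and 107 (-0.21 ± 0.04, adjusted p = 0.00224). In H1975 it was at 357, 346 and 332 with C36 and 323, 318 and 319.76 with MinE07, apart but not called (-0.11, adjusted p = 0.0706). Vehicle there was higher still, at 384, 386 and 360.31, and the change against vehicle passed (-0.23, adjusted p = 0.00229). NOLC1 is a nucleolar protein that binds snoRNPs. In H1975 it went from 50.3, 49.5 and 48.4 to 41.9, 43.1 and 40.96 (-0.23 ± 0.03, adjusted p = 0.000896). Its change in H3255 was -0.10 (adjusted p = 0.0488), a call lost in 10 of 19 alternatives, among them without C36 replicates 2 or 3, MinE07 replicates 1 or 3 or any vehicle library (up to 0.181).

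Of the 7 snoRNP proteins, 4 were called lower in each of these lines: NOP56, NOP58, RRP9 and DKC1. NOP56, a core protein of the box C/D particles, was at 23.95, 24.8 and 23.9 FPKM with C36 and 20.3, 19.8 and 20.6 with MinE07 in H3255 (-0.25 ± 0.04, adjusted p = 0.000386). In H1975 it was at 54.04, 55.9 and 53.2 with C36 and 45.8, 45.4 and 43.3 with MinE07 (-0.28 ± 0.03, adjusted p = 0.000473). The MinE07 libraries were the lowest 3 of 9 in both lines.

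DKC1, dyskerin, is the pseudouridine synthase of the box H/ACA particles. In H1975 it went from 42.7, 42.5 and 44.3 FPKM with C36 to 36.1, 35.8 and 35.4 with MinE07 (-0.27 ± 0.03, adjusted p = 0.000473), and in H3255 the change was -0.19 (adjusted p = 0.00755). Its partners GAR1 and NHP2 were called in neither line. NHP2 changed by 0.01 in H3255 (95% interval -0.08 to 0.10) and by -0.13 in H1975 (95% interval -0.22 to -0.03).

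RRP9, a protein of the U3 snoRNP, was at 4.30, 4.33 and 4.86 FPKM with C36 and 3.54, 3.59 and 4.07 with MinE07 in H3255. These did not overlap, and the call (-0.24, adjusted p = 0.0299) was lost without C36 replicate 3 or MinE07 replicates 1 or 2 (up to 0.122). In H1975 RRP9 changed by -0.23 (adjusted p = 0.00138). FBL was at 21.2, 20.02 and 20.6 with C36 and 16.8, 18.5 and 19.5 with MinE07 in H3255, apart but not called (-0.17, adjusted p = 0.129). Against vehicle there, at 20.4, 21.6 and 25.6, FBL passed (-0.29, adjusted p = 0.0198), a call lost without MinE07 replicate 1 (over the alternatives up to 0.0763).

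Among the 12 small-subunit assembly genes, 8 were called lower in H3255 and 6 in H1975. UTP20, a large scaffold protein of the early small-subunit particle, was at 4.25, 3.58 and 3.52 FPKM with C36 and 3.04, 2.9956 and 3.0038 with MinE07 in H3255 (-0.28 ± 0.06, adjusted p = 0.00491). In H1975 its change was -0.11 and was not called (adjusted p = 0.191). TSR1 acts late in small-subunit maturation. In H3255 it went from 19.5, 20.3 and 19.2 to 16.2, 16.8 and 16.7 (-0.24 ± 0.03, adjusted p = 0.000315), and in H1975 its change was -0.19 (adjusted p = 0.00616).

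BYSL, bystin, a small-subunit assembly factor, was at 11.7, 12.7 and 11.4 FPKM with C36 and 10.1, 10.3 and 9.66 with MinE07 in H1975 (-0.24 ± 0.04, adjusted p = 0.00523). In H3255 its change was -0.24 (adjusted p = 0.00108). WDR43, of the UTP-A complex that binds the new ribosomal RNA first, was at 17.8, 17.7 and 17.9 with C36 and 15.04, 15.1 and 15.8 with MinE07 in H1975 (-0.21 ± 0.03, adjusted p = 0.00153). In H3255 its change was -0.24 (adjusted p = 0.00164). MinE07 and C36 libraries were apart for both genes in both lines. HEATR1, of the same complex, was called in neither (-0.11, 95% interval -0.20 to -0.01, in H3255; -0.02, 95% interval -0.11 to 0.07, in H1975).

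Among the 11 large-subunit assembly genes, 8 were called lower in H3255 and 9 in H1975. NOP2, an RNA methyltransferase of the large-subunit precursor, was at 14.005, 13.6 and 13.5 FPKM with C36 and 10.6, 11.2 and 11.6 with MinE07 in H3255 (-0.29 ± 0.05, adjusted p = 0.00122). In H1975 it was at 11.9, 12.3 and 12.1 with C36 and 9.94, 10.2 and 9.36 with MinE07 (-0.28 ± 0.04, adjusted p = 0.00163). BOP1 acts in a complex with PES1 and WDR12. In H3255 it went from 12.1, 10.6 and 11.97 to 8.64, 9.47 and 10.5 (-0.26 ± 0.07, adjusted p = 0.0125). Its call in H1975 (-0.26, adjusted p = 0.013) was lost without MinE07 replicate 3 and when its 2 copies were summed (over the alternatives up to 0.0984). PES1 was called in both lines and WDR12 in H3255.

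PPAN, a large-subunit assembly factor, had the largest change of the 40 genes in H1975, from 18.9, 18.03 and 18.2 FPKM with C36 to 15.1, 14.6 and 12.8 with MinE07 (-0.37 ± 0.06, adjusted p = 0.00195). NOP16 followed, from 28.6, 27.4 and 27.7 to 22.7, 21.3 and 21.8 (-0.34 ± 0.04, adjusted p = 0.000499). In H3255 the change was -0.24 for PPAN (adjusted p = 0.00807) and -0.12 for NOP16, which was not called (adjusted p = 0.0806). GNL3, nucleostemin, a nucleolar GTPase, was the 1 gene whose MinE07 libraries lay wholly above the C36 libraries in H3255. It was at 11.5, 11.4 and 12.02 with C36 and 12.1, 12.7 and 12.1 with MinE07, and the change of 0.08 was not called (adjusted p = 0.169).

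The same MinE07 libraries were also set against vehicle. In H3255, 21 of 40 were called lower and none higher (17.2% of all tested genes lower, 21.4% higher, 38.6% either way), with a median of -0.14 beside 0.01 over all tested genes. In H1975, 30 of 40 were called lower and none higher (12.9% of all tested genes lower, 10.8% higher, 23.7% either way), with a median of -0.21. Of the genes called against C36, 20 in H3255 and 26 in H1975 were called against vehicle too. LYAR, NOLC1, NOP58, RRP9, UTP15 and WDR12 were called in H3255 against C36 alone and FBL against vehicle alone. In H1975, POLR1B was called against C36 alone and GNL3, NPM1, WDR12 and WDR75 against vehicle alone. Under every alternative, 14 of the 21 calls against vehicle in H3255 and 21 of the 30 in H1975 held. Leaving out a single library ended the call of BOP1, DKC1, FBL, NOP2, PES1, PPAN or UTP20 in H3255, with adjusted p over all alternatives up to 0.0806, 0.0816, 0.0763, 0.109, 0.0677, 0.152 and 0.103. In H1975 it ended that of GRWD1, MYC, POLR1C, WDR12 or WDR75, with adjusted p up to 0.0951, 0.0667, 0.094, 0.121 and 0.111. The calls of BOP1, GNL3 and PPAN in H1975 ended without a filter on low genes, and that of BOP1 also when its copies were summed. The call of RRP9 ended when all 36 libraries were fitted together. Over all alternatives, adjusted p ran up to 0.194 for BOP1, 0.0514 for GNL3, 0.0647 for PPAN and 0.19 for RRP9. C36 against vehicle called none of the 40 in either line by limma, where 0.305% of all tested genes were called in H3255 and 0.233% in H1975. At an unadjusted p under 0.05, 3 of the 40 passed in each of these, beside 2136 of all 13429 tested genes in H3255 and 2032 of 14183 in H1975. For C36 against vehicle in H3255, rescaling changed the calls over all genes from 22 higher and 19 lower to 34 and 105, with none of the 40 among them.

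In H820 a few genes rose from vehicle with an aptamer. MinE07 against vehicle called 2 of 40 higher, MYC and NOP2 (1.99% of all tested genes higher, 3.02% either way). The median of the 40 was 0.08 beside 0.01, and 14 lay above vehicle without overlap (14.4% of all tested genes). After rescaling, the calls over all genes went from 274 higher and 141 lower to 201 and 180, and MYC alone of the 40 was called. C36 against vehicle called 3 higher, MYC, POLR1B and NOLC1 (1.56% of all tested genes higher, 2.85% either way). There 34 of 40 were positive, with a median of 0.08 beside 0.01, and 24 lay above vehicle without overlap (13.6% of all tested genes).

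NOP2 in H820 was at 7.96, 7.58 and 7.48 FPKM with vehicle, 8.41, 8.42 and 8.38 with C36 and 8.50, 8.47 and 8.66 with MinE07. Vehicle was the lowest group without overlap, by 0.15 against MinE07 (adjusted p = 0.0402) and 0.12 against C36 (adjusted p = 0.0706). POLR1B was at 6.71, 6.84 and 6.79 with vehicle and 7.54, 7.65 and 7.49 with C36 (0.15, adjusted p = 0.0262). NOLC1 was at 29.4, 29.4 and 29.5 with vehicle and 32.96, 31.6 and 32.6 with C36 (0.14, adjusted p = 0.0476). MYC held its calls in every alternative. The others rested on single libraries: without any 1 of the C36 libraries, or vehicle replicates 2 or 3, MYC was the 1 gene called in either comparison, with adjusted p over the alternatives up to 0.128 for NOP2, 0.103 for POLR1B and 0.171 for NOLC1. In A549, MinE07 against vehicle called none of the 40 by limma (0.216% of all tested genes), and 1 without vehicle replicate 1. At an unadjusted p under 0.05, 3 of the 40 passed there, beside 1865 of all 13425 tested genes. C36 against vehicle called MYC alone (3.62% of all tested genes higher, 6% either way).

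Whether the lines with L858R differed from the others was tested as a difference of changes in 1 fit of all 36 libraries. The spread in that test came from libraries within groups and not from lines. Its p-values therefore hold for these lines and not for lines with L858R in general. All 40 genes had a more negative change in H3255 and H1975, on average, than in H820 and A549, and 28 were called. Of all tested genes 14.3% were called lower, 10.1% higher and 24.5% either way, and the median difference was -0.16 for the 40 beside -0.01 over all tested genes. After rescaling 24 of the 40 were called lower and none higher, while the calls over all genes turned from 1476 higher and 2090 lower to 2042 and 1506. DDX21 had the largest difference, -0.30 ± 0.04 (adjusted p = 3.55e-07), followed by BOP1 (-0.29 ± 0.06, adjusted p = 0.000536). For MYC it was -0.17 ± 0.04 (adjusted p = 0.00419). The MYC change between the aptamers was -0.33 in H1975, -0.12 in H3255, 0.01 in H820 and -0.10 in A549, and was called in H1975 alone. Taken singly, H1975 was called apart from H820 and from A549 for MYC, and H3255 was not.

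By role, 10 of 11 large-subunit genes, 7 of 12 small-subunit genes, 4 of 7 snoRNP genes, all 3 chaperones and 3 of 6 polymerase I genes and regulators were called in that test. The 3 regulators DDX21, MYBBP1A and LYAR were called, and the 3 polymerase subunits POLR1A, POLR1B and POLR1C were not. HEATR1 had a difference of -0.04 (95% interval -0.13 to 0.06). Of the 28 calls 23 held in every alternative, and those of RRP9, WDR12 and WDR3 were lost without some single libraries, RRP9 without any 1 of 10 libraries and with adjusted p up to 0.101, WDR12 without any 1 of 10 libraries and up to 0.113, and WDR3 without H3255 MinE07 replicate 2 or H820 MinE07 replicate 2 and up to 0.0713.

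**Figure D4:**
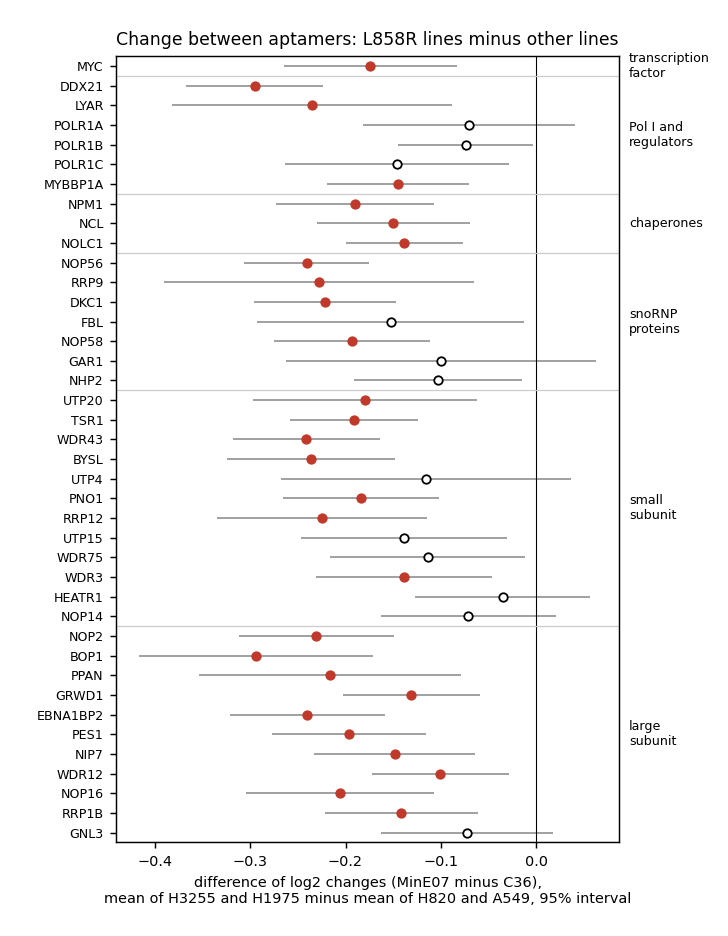
Difference of the change between MinE07 and C36, as the mean of H3255 and H1975 minus the mean of H820 and A549 (horizontal axis, log2, with 95% interval), for the 40 genes by role; filled points are called. All 40 points lie left of 0 and 28 are filled, with DDX21 and BOP1 farthest left at -0.30 and -0.29.

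Line by line, each called difference from H820 or A549 had the more negative change in the line with L858R. H3255 differed from H820 for 16 of 40 genes (11.2% of all tested genes lower, 18.9% either way) and from A549 for 18 (14% lower, 25.2% either way). H1975 differed from H820 for 18 (4.19% lower, 7.32% either way) and from A549 for 16 (6.88% lower, 12.6% either way). After rescaling these counts were 12, 13, 14 and 12, all lower, while the calls over all genes went from 1122 higher and 1634 lower to 1447 and 1329 for the first pair, from 1643 and 2033 to 2157 and 1671 for the second, from 456 and 611 to 625 and 402 for the third and from 838 and 1003 to 1178 and 704 for the last. The largest called differences were those of PPAN between H1975 and H820 (-0.40 ± 0.09, adjusted p = 0.00806), RRP12, a small-subunit factor, between H3255 and H820 (-0.34 ± 0.08, adjusted p = 0.00155), and NOP16 between H1975 and H820 (-0.34 ± 0.07, adjusted p = 0.00174). H820 and A549 were not called apart for any of the 40 by limma (0.323% of all tested genes). At an unadjusted p under 0.05, 7 of 40 passed. The 0.323% counts adjusted calls and cannot be set beside these 7, so they are not read as a result about the 40.

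H3255 and H1975 differed for 5 genes, all with the more negative change in H1975 (6.74% of all tested genes were called in that direction, 15.2% either way). They were NOP16 (0.22 ± 0.07, adjusted p = 0.0289), MYC (0.20 ± 0.06, adjusted p = 0.0233), GNL3 (0.20 ± 0.06, adjusted p = 0.0242), MYBBP1A (0.15 ± 0.05, adjusted p = 0.0473) and NOLC1 (0.13 ± 0.04, adjusted p = 0.0299). The median difference over the 40 was 0.0025, beside 0.0024 over all tested genes. Either way, the 40 were called less often than all tested genes, though more often in the direction of H1975. The 5 calls therefore do not set the 40 apart. These calls rested on single libraries: none of the 40 was called without H1975 MinE07 replicate 3, and 1 without H3255 C36 replicate 1, H3255 C36 replicate 3 or H3255 MinE07 replicate 2. It was 2 without H1975 C36 replicate 2 or H3255 MinE07 replicate 3, and 3 without H1975 C36 replicates 1 or 3, H1975 MinE07 replicates 1 or 2 or H3255 C36 replicate 2.

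Other genes of the pathway were read from lists that share no gene with the 40 but were chosen with earlier results of these data known. H820 and A549 had no call between the aptamers in any of these lists. Of 70 other ribosome assembly genes, 27 were called lower between the aptamers in H3255 and 29 in H1975, none higher, with a median of -0.12 in each, where 20% and 11.1% of all tested genes were called lower. In H3255, RIOK1, a kinase of small-subunit maturation, went from 7.74 ± 0.27 to 6.15 ± 0.28 FPKM (-0.31, adjusted p = 0.000433), and RPF2, of the large subunit, changed by -0.28 (adjusted p = 0.000657). In H1975, UTP11, of the small subunit, went from 7.89 ± 0.17 to 6.44 ± 0.38 (-0.28, adjusted p = 0.00225), and MRTO4, of the large subunit, changed by -0.27 (adjusted p = 0.00332). Of 12 other polymerase I genes, 3 (25%) were called lower in each line and none higher, a share near that of all tested genes in H3255 (20%) and above it in H1975 (11.1%). TAF1A, of the polymerase I selectivity factor, changed by -0.27 in H3255 (adjusted p = 0.0337), with -0.25 in H1975 (adjusted p = 0.0147). POLR1G, a polymerase I subunit, changed by -0.22 (adjusted p = 0.00444) and -0.26 (adjusted p = 0.0321) in these lines. The letters CACGTG were in the window of 34.4% of 61 of the assembly genes and 9.09% of 11 of the polymerase genes.

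Of 26 other genes known to respond to MYC in growth, 20 were called lower in each line with L858R and none higher, with medians of -0.20 in H3255 and -0.15 in H1975, where 20% and 11.1% of all tested genes were called lower. LDHA, lactate dehydrogenase A, went from 143 ± 6.2 to 74.96 ± 0.66 FPKM in H3255 (-0.92, adjusted p = 6.18e-07), a larger change than that of any of the 40 genes. NME1, a nucleoside diphosphate kinase, went from 108 ± 1.6 to 78.9 ± 4.3 there (-0.46, adjusted p = 2.01e-05). In H1975 the largest changes were those of polyamine enzymes. SRM, spermidine synthase, went from 47.7 ± 0.59 to 37.7 ± 3.5 (-0.34, adjusted p = 0.00252) and ODC1, ornithine decarboxylase, from 53.2 ± 1.2 to 42.1 ± 0.79 (-0.33, adjusted p = 0.000192). The E-box letters were in the window of 50% of 24 of these genes.

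Of the partners, paralogs and antagonists of MYC, 4 of 13 were called higher and none lower in H3255, where 16.6% of all tested genes were called higher and 20% lower. MXD4, which competes with MYC for MAX, went from 4.64 ± 0.028 to 10.2 ± 0.57 FPKM (1.06, adjusted p = 3.57e-07). MYCL, a paralog of MYC, went from 5.72 ± 0.17 to 8.79 ± 0.12 (0.58, adjusted p = 3.89e-06). MYCN, another paralog, and MNT, a repressor that pairs with MAX, were the other two. In H1975, 2 of 10 were called, where 8.88% of all tested genes were called higher and 11.1% lower: MXD4 rose from 14.5 ± 0.66 to 18.6 ± 0.62 (0.35, adjusted p = 0.0016), while MXD3, of the same family, was lower (-0.20, adjusted p = 0.0224).

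The cytosolic ribosomal proteins were not called lower with the assembly genes. Of 79, 12 (15.2%) were called higher and none lower in H3255, where 16.6% of all tested genes were called higher and 20% lower, so the higher calls were no more frequent than over all genes. In H1975 none was called either way by limma, where 19.9% of all tested genes were, and the medians were 0.04 in H3255 and 0.02 in H1975. At an unadjusted p under 0.05, 2 passed in H1975, beside 4817 of all 14183 tested genes. RPL34, of the large subunit, went from 65.7 ± 2.7 to 76.7 ± 2.8 FPKM in H3255 (0.22, adjusted p = 0.00217). RPL13A, also of the large subunit, went from 237 ± 8.6 to 272 ± 10 (0.20, adjusted p = 0.00359). Against vehicle in H3255, 4 of the 79 were called higher and none lower, which became 3 higher and 3 lower after rescaling. Many ribosomal protein genes have near-identical copies in the genome, so their reads may be divided and their levels are uncertain. The E-box letters were in the window of 6.35% of 63 of them.

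**Figure D5:**
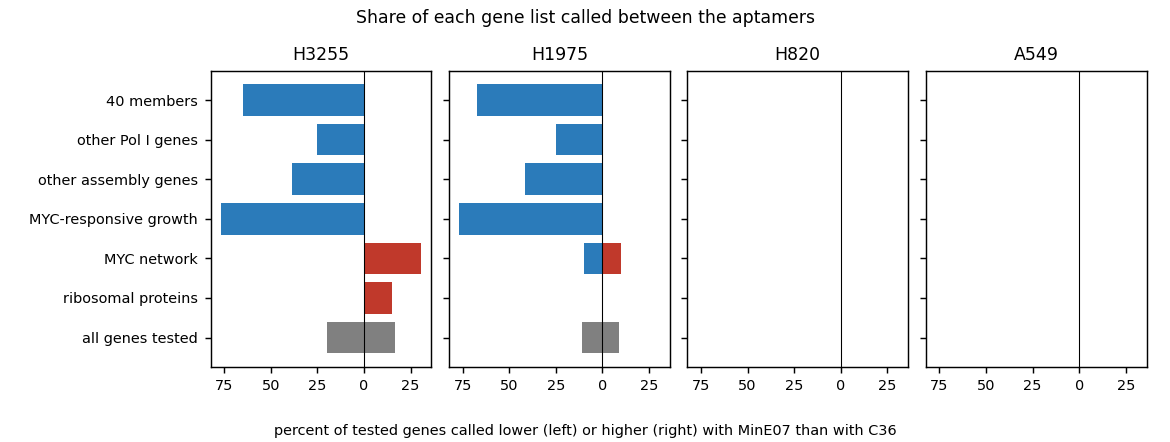
Percent of the tested genes of each list called lower (left of 0) or higher (right of 0) with MinE07 than with C36 in the 4 lines, with all tested genes in grey. The 40 genes reach 65% lower in H3255 and 67.5% in H1975, against 20% and 11.1% of all tested genes, and no list has a call in H820 or A549.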

How the data were processed

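Values are FPKM per gene and library, as deposited by the authors. The submitters' processing notes name HISAT2, Cuffdiff, GRCh38.p12 and hg38, without versions, and the annotation is not given in the sources used here. The 36 tables were joined by gene name, and 1874 unnamed and 31 repeated entries of 68271 were left out. Testing used log2(FPKM + 0.5) in limma 3.58.1 (R 4.3.3, statmod 1.5.0; trend and robust moderation) for genes whose FPKM averaged 1 or more in the libraries fitted: 9 per line, 36 for differences between lines and 12 for vehicle levels. Changes on this scale understate those of low genes. Two-sided p-values were adjusted over all tested genes (Benjamini-Hochberg), and a gene was called under 0.05. The scripts were tested on simulated data. The 40 genes and all lists were chosen with earlier results of these data known. Library values are printed for MYC, for the 2 called genes of each role with the largest change between the aptamers in H3255 and in H1975, for genes called in H820 or A549 and for NCL, NPM1 and FBL; those of POLR1A and GNL3 were added after they were seen. From each other list up to 2 called genes per line are named by the size of their change. Alternatives were other pseudocounts and filters, rescaling by medians of ratios, plain moderation, further copies of a gene left out or summed (the summing was chosen after seeing the data), 1 fit of all libraries, a replicate block and the omission of each library.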

Additional observations from a re-analysis of the deposited data

Results flagged for a closer look

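Differences between lines in the change from C36 to MinE07 were singled out because the difference itself was tested. The count of genes of the 40 that differed was 28 for the lines with L858R against the others, 5 for H3255 against H1975, 16 for H3255 against H820, 18 for H3255 against A549, 18 for H1975 against H820 and 16 for H1975 against A549. In the same order, 24.5%, 15.2%, 18.9%, 25.2%, 7.32% and 12.6% of all tested genes were called either way. After rescaling the counts were 24, 5, 12, 13, 14 and 12. The 5 calls for H3255 against H1975 were a smaller share than that of all tested genes, and 0 of them held in every alternative. MYC differed by -0.17 on the log2 scale between the lines with L858R and the others, by 0.20 between H3255 and H1975, by -0.33 between H1975 and H820 and by -0.22 between H1975 and A549. MYC was not called for H3255 against H820 or A549. Between H3255 and H1975 the difference was 0.20 for GNL3, 0.15 for MYBBP1A, 0.13 for NOLC1 and 0.22 for NOP16, each with the more negative change in H1975. Vehicle MYC was 7.24 FPKM in H3255 and 77.2 in H1975, and the part of that level in these differences was not tested.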

How the results depend on the processing

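Counts of genes called between MinE07 and C36 stayed within 1.5 times of the main value under every alternative for H3255 (20 to 33 against 26), for H1975 (23 to 31 against 27) and for the lines with L858R against the others (24 to 30 against 28), and no call reversed in any comparison. Deviations of same-numbered libraries had a median correlation of 0.008 for H3255, -0.03 for H1975, 0.063 for H820 and -0.055 for A549, and 3, 1, 4 and 0 of 9 such pairs were over 0.1. In H820 these 4 included all 3 pairs of replicate 1, against 1 of 18 pairs with unlike numbers. Not every pair was over 0.1 in any line, so the numbers were not taken to pair the libraries. With a replicate block, the aptamers gave 25 calls for H3255 and 25 for H1975, MinE07 against vehicle gave 1 for H820, and C36 against vehicle gave 1 for H820 and 0 for A549; in H820 the calls of NOP2, POLR1B and NOLC1 ended. MinE07 against vehicle in H820 (2 calls) gave 1 without a filter or after rescaling, 4 with a mean FPKM of at least 5 and 6 when all 36 libraries were fitted together. C36 against vehicle in H820 (3) gave 1 without a filter and 5 when all were fitted together, and in A549 (1) it gave 0 without a filter, 0 with plain moderation and 2 when all were fitted together. MinE07 against vehicle in A549 (0) gave 1 in that joint fit, and H3255 against H1975 (5) gave 1 without a filter. These counts stand without the share of all tested genes under each setting, so they are not read as results about the 40. The cause of the shifts in count was not tested. Leaving out 1 library at a time gave 20 to 25 for H3255 and 23 to 28 for H1975 between the aptamers, 16 to 22 and 25 to 31 for MinE07 against vehicle there, 1 to 2 for MinE07 and 1 to 3 for C36 against vehicle in H820, 0 to 1 for either in A549, 25 to 30 for the lines with L858R and 0 to 5 for H3255 against H1975. Rescaling moved the median of all tested genes by over 0.1 in 3 vehicle comparisons, from -0.14 to -0.02 for H3255 minus H1975, from 0.15 to 0 for H1975 minus H820 and from 0.19 to 0.03 for H1975 minus A549. It turned the split of the 40 for H1975 minus H820 from 20 higher and 10 lower to 16 and 20. The files give no counts, so precision is known from the spread of 3 libraries only.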
